A study of Mus musculus with 8 samples.

Results

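The Notch pathway genes examined here are 10 of the 31276 genes in a table of RNA levels: the receptors Notch1, Notch2 and Notch3, the ligands Jag1 and Dll1, the glycosyltransferase Lfng, the DNA-binding factor Rbpj and the target genes Hes1, Hey1 and Heyl. They were taken by symbol for their roles in the pathway, in a choice made with earlier results of these libraries known, and all 10 were found. The cells were C3H10T1/2, a mouse line of embryonic origin that behaves as multipotent mesenchyme, at passages 10 to 15 in medium with serum. All 8 lines stably expressed a FLAG-HA-tagged histone H3 transgene, the wild-type (WT) line included, and each line gave 1 RNA-seq library. The transgenes were H3.3 with K36M, K36I, K36A, K36L or K36R, H3.1 with K36M or K36R, and H3.3 WT. A name such as K36M means that the lysine at position 36 of the histone, a site of methylation, was replaced by methionine, and I, A, L and R stand for isoleucine, alanine, leucine and arginine. Whether a line was a clone or a pool, and how much tagged histone it made, is not given in the sources used here.

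In Notch signalling a ligand on one cell binds a receptor on its neighbour. ADAM proteases and then gamma-secretase cut the receptor, and its intracellular domain enters the nucleus, joins RBPJ and Mastermind proteins and switches on genes such as Hes1, Hey1 and Heyl. Fringe enzymes such as LFNG add sugars to the receptors and so change which ligands act on them. In skeletal mesenchyme the pathway is known for holding progenitors back from cartilage and bone differentiation.

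The question put to these genes was how their RNA levels differ between lines with different substitutions. K36M and K36I are described in the literature as inhibitors of the enzymes that methylate this lysine, so the 3 lines that carry them were set against the other 5 (K36A, K36L, K36R on either histone, and WT). The 3 lines are called the K36M and K36I lines below. Levels are given as normalised reads, meaning whole reads recovered from the deposited values and divided by the size factor of the library. Differences keep the log2 scale of the deposited values, which compresses the differences of genes with few reads. No transgene had a second library and the labels speak of no second derivation or culture of a line, so every p-value weighs a difference against the spread between these lines, some of which may be technical.

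Library totals were 45448249 reads for H3.1 K36M and 53199065 for H3.1 K36R, against 61139941 to 68020958 for the 6 H3.3 lines. A count of 0 allows up to 3 reads by counting error alone, which here stand for 2.55 to 3.94 normalised reads. Mesenchymal markers were present as the labels say, with 8 of 8 genes past the filter on low values. Their summed level was 514544 to 691355 normalised reads in the K36M and K36I lines, against 696619 to 961176 in the other 5. Of 7 mural genes 5 passed the filter, and their sums overlapped (47489 to 176482 against 58707 to 125195 normalised reads). Endothelial markers summed to 24.97 to 44.9 against 41.2 to 100.4 normalised reads, with Kdr, Emcn, Tie1 and Cldn5 at 10 reads or fewer in every library. The 5 leukocyte markers in the table summed to 186 to 254 against 103 to 169 normalised reads, with Cd3e at 0 and Ptprc at 10 reads or fewer. Epithelial markers (2 of 7 past the filter) and neural markers (1 of 5) overlapped between the classes. The mesenchymal and leukocyte sums did not overlap between the classes, but few genes carried this. Of the 8 mesenchymal genes Col1a2 was lower without overlap (126820 to 184390 against 190600 to 294150 normalised reads), Twist1 was higher without overlap (1192 to 1446 against 865 to 1065) and the other 6 overlapped. Most of the leukocyte sum was Cd68 (160 to 241 against 101 to 149 normalised reads). The part of these genes in the results below was not tested. Ribosomal 45S RNA took 1.70% to 2.19% of reads in the K36M and K36I lines and 1.66% to 5.24% in the others, where H3.3 K36A and H3.3 K36L were highest.

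Of the 10 genes, RefSeq promoter sequences (GRCm38.p6) were matched for 7. Those of Jag1, Notch1 and Lfng are shown because these genes differed most between the classes among the 7 on the log2 scale. That of Rbpj is shown because it moved the other way. Each line gives the 250 bases before the RefSeq start up to the first base that an annotated exon covers, on the gene's own strand. Dll1 also moved the other way, but by this rule 0 bases of its windows were left to print. Rbpj has 2 starts in RefSeq and the first is shown. Capitals mark TGGGAA, the core of the sequence that RBPJ binds, on either strand, and CACGTG, an E-box of the kind bound by HES and HEY proteins.
Jag1 chr2:137116645-137116770 (minus strand, 126 bases): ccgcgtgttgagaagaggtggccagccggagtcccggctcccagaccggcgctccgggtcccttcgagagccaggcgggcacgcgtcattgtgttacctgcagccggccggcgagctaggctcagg
Notch1 chr2:26503825-26504072 (minus strand, 248 bases): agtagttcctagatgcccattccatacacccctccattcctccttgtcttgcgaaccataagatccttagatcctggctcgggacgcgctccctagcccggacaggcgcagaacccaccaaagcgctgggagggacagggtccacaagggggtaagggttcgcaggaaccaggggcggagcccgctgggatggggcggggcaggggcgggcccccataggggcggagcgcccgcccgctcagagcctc
Lfng chr5:140607091-140607319 (plus strand, 229 bases): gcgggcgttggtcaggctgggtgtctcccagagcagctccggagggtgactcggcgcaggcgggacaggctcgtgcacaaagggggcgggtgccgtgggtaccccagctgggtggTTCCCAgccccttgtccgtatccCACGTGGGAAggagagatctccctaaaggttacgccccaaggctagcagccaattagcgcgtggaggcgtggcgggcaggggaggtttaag
Rbpj chr5:53590096-53590213 (plus strand, 118 bases): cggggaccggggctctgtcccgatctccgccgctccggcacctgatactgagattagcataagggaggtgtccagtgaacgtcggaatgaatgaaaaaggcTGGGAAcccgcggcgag
Lfng held GTGGGAA, the longer form of the RBPJ sequence, 109 bases before the start, overlapping a CACGTG that began 112 bases before it. A second TGGGAA lay on the opposite strand 135 bases before the start. Searched on both strands in the full 250 bases before the start, GTGGGAA occurs in 5.415% of 32851 promoter windows, TGGGAA in 21.59% and CACGTG in 6.021%. In the same 250 bases of Jag1 and of Notch1 neither TGGGAA nor CACGTG was found. Such a match describes the letters in the window and is not evidence of binding.

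Jag1, the ligand with most RNA in these cells (chr2:137081456-137116644 on GRCm38, minus strand), was far lower in every K36M and K36I line. It had 2539, 1439 and 2190 normalised reads in H3.3 K36M and K36I and in H3.1 K36M, against 13892 in H3.3 K36A, 12930 in H3.3 K36L, 19995 in H3.3 K36R, 12877 in H3.1 K36R and 13449 in H3.3 WT. All 3 values lay well under the lowest of the others. Means were 2056 ± 562 (SD, n = 3) and 14629 ± 3028 (SD, n = 5) normalised reads, a ratio of 0.141. The difference was -2.77 ± 0.20 (SE) on the log2 scale (limma, adjusted p = 0.000147), and it passed with each of the 8 libraries left out in turn (-2.94 to -2.55).

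Dll1, a second ligand that activates the receptors (chr17:15367354-15376872, minus strand), had few reads and went the other way. Its level was 73.5, 68.9 and 74.9 normalised reads in H3.3 K36M and K36I and in H3.1 K36M. It was 5.75 in H3.3 K36A, 13.6 in H3.3 K36L, 12.3 in H3.3 K36R, 31.7 in H3.1 K36R and 13.0 in H3.3 WT. The classes did not overlap: the lowest of the 3, in H3.3 K36I, rested on 81 reads, with an exact 95% Poisson interval of 54.7 to 85.6 normalised reads, and the highest of the other lines on 29 reads, with an interval of 21.2 to 45.5. Dll1 lay just under the filter, with a mean of 0.99 above the lowest value where 1 was required, and so it has no test in the comparison reported here. Fitted with no filter its difference was 0.81 ± 0.12 (SE; limma, adjusted p = 0.0164). Its exons overlap those of A930024N18Rik on the opposite strand, and since the use of strand in counting is not given, reads of the pair cannot be told apart.

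Per kilobase of exon, the canonical ligands (Jag1, Jag2, Dll1, Dll3 and Dll4) summed to 313 to 518 normalised reads in the K36M and K36I lines, against 2223 to 3448 in the other 5. Jag1 made up 84.1% of that sum in H3.3 K36M, 78.9% in H3.3 K36I and 93.7% in H3.1 K36M, against 98.4% to 99.5% in the other lines. Dll1 made up 3.36% to 5.22% in the K36M and K36I lines and 0.0565% to 0.338% in the others. Within this sum Jag1 remained the main ligand RNA in each library. Dlk2, a non-canonical ligand outside the sum, had 306 normalised reads per kilobase in H3.3 K36I, against 247 for Jag1. In every other line Dlk2 lay below Jag1, with 298 against 436 in H3.3 K36M. Exons of Abcc10 overlap Dlk2 on the opposite strand, and the use of strand in counting is not given, so the level of Dlk2 is uncertain. Jag2 had 439, 323 and 24.97 normalised reads in the 3 lines and 28.4 to 230 in the others, so the classes overlapped (0.46 ± 0.52 SE; limma, adjusted p = 0.623).

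Notch1, the receptor with the largest difference (chr2:26457903-26516663, minus strand), followed Jag1. It had 655, 1217 and 846 normalised reads in H3.3 K36M and K36I and in H3.1 K36M, against 4390 in H3.3 K36A, 3523 in H3.3 K36L, 3437 in H3.3 K36R, 3554 in H3.1 K36R and 3930 in H3.3 WT. No K36M or K36I line reached the lowest of the others. Means were 906 ± 286 (SD, n = 3) and 3767 ± 396 (SD, n = 5) normalised reads, a ratio of 0.241, and the difference was -1.95 ± 0.17 (SE; limma, adjusted p = 0.000333). It passed with every library left out in turn (-2.16 to -1.77). Exons of 0610009E02Rik and Gm13568 overlap Notch1 on the opposite strand.

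Notch2, the receptor with most RNA (chr3:98013527-98150361, plus strand), was lower by a much smaller margin. It had 7038, 8144 and 9238 normalised reads in H3.3 K36M and K36I and in H3.1 K36M, against 10684 in H3.3 K36A, 11319 in H3.3 K36L, 11205 in H3.3 K36R, 10205 in H3.1 K36R and 10917 in H3.3 WT. There was no overlap between the classes, and the difference was -0.42 ± 0.09 (SE; limma, adjusted p = 0.0180). The call was lost without H3.3 K36M (adjusted p = 0.0643), without H3.3 K36I (0.0552) and without the pair with most 45S RNA, H3.3 K36A and H3.3 K36L (0.0891, all by limma). Gm42820 overlaps it on the same strand.

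Notch3, a receptor known from vascular smooth muscle and pericytes (chr17:32120820-32166852, minus strand), did not pass. It had 1943, 2305 and 1104 normalised reads in H3.3 K36M and K36I and in H3.1 K36M, against 1239 in H3.3 K36A, 1991 in H3.3 K36L, 1367 in H3.3 K36R, 576 in H3.1 K36R and 2134 in H3.3 WT. The classes overlapped, with a difference of 0.32 ± 0.39 (SE; limma, adjusted p = 0.646). Within each class the H3.1 line was lowest. Exons of Gm17276 overlap Notch3 on the opposite strand.

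The make-up of receptor RNA is given here as a description, without a test. Per kilobase of exon, Notch1 was 4.87%, 7.58% and 5.63% of the summed receptors in H3.3 K36M and K36I and in H3.1 K36M, against 16.0% to 21.2% in the other 5 lines. Notch2 was 66.9% to 81.1% against 65.1% to 74.4%. Notch3 was 25.4%, 25.2% and 12.9% in the 3 lines, against 5.60% to 17.0%. The sum over the 4 receptors was 944 to 1129 normalised reads per kilobase against 1273 to 1556. Notch4, known from endothelium, stayed under 1% in each library (0.230% to 0.527%). Exact shares depend on the exon lengths taken from the annotation.

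**Figure D1:**
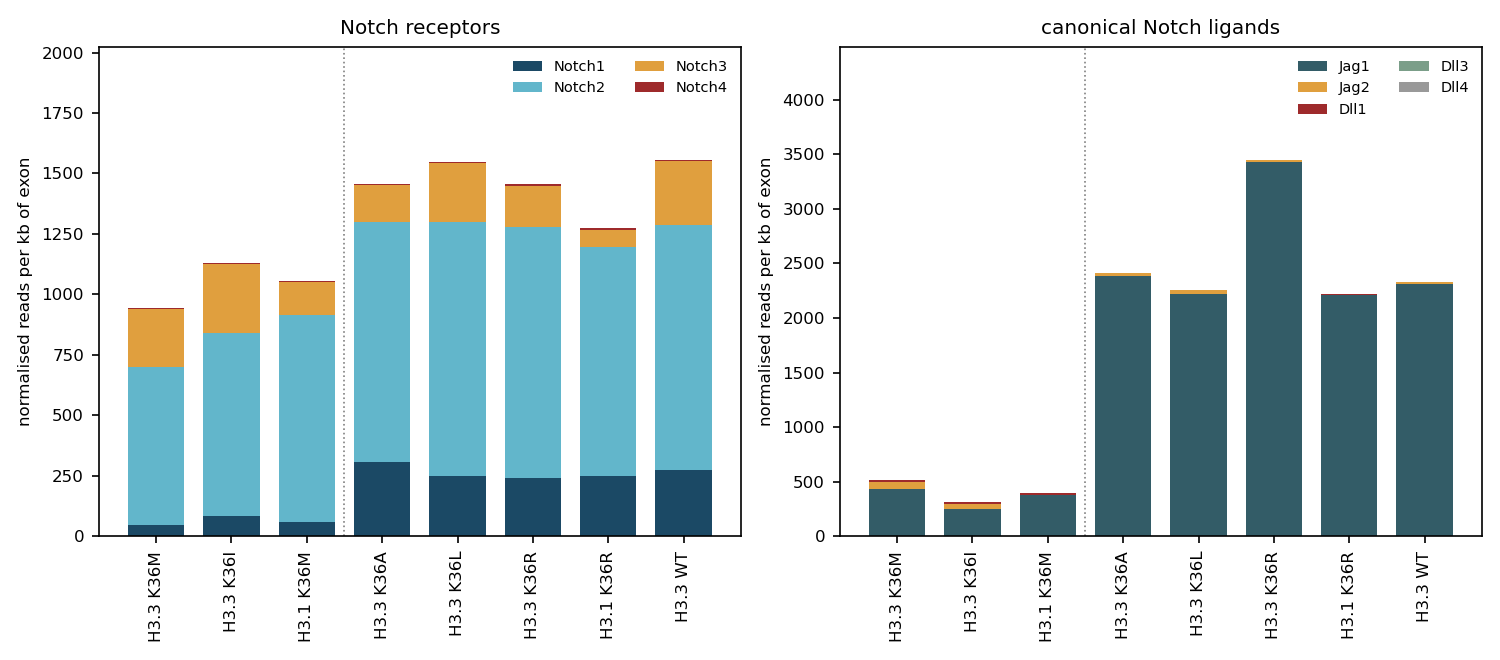
Stacked bars give normalised reads per kilobase of exon for the Notch receptors (left) and canonical ligands (right) in each library, with the K36M and K36I lines left of the dotted line. The ligand bars reach 313 to 518 left of it and 2223 to 3448 right of it. Jag1 makes up 78.9% to 93.7% of the ligand bars on the left and 98.4% to 99.5% on the right. The receptor bars differ less and keep a large Notch2 share.

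Lfng, the fringe enzyme (chr5:140607320-140615545, plus strand), was also lower. It had 803, 902 and 685 normalised reads in H3.3 K36M and K36I and in H3.1 K36M, against 2501 in H3.3 K36A, 2467 in H3.3 K36L, 2024 in H3.3 K36R, 1361 in H3.1 K36R and 2655 in H3.3 WT. Again the classes were apart, although H3.1 K36R lay between the K36M and K36I lines and the other H3.3 lines. Means were 796 ± 109 (SD, n = 3) and 2202 ± 525 (SD, n = 5) normalised reads, a ratio of 0.362. The difference was -1.31 ± 0.20 (SE; limma, adjusted p = 0.00453) and passed with each library left out. Of the fringe RNA per kilobase Lfng made up 49.6% to 64.7% in the K36M and K36I lines and 71.5% to 83.3% in the others, with Rfng as the remainder and Mfng at 0 reads in every library.

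Rbpj, the protein through which all Notch receptors act on DNA and which represses the same genes when no receptor domain is bound (chr5:53466152-53657362, plus strand), was higher. It had 7590, 8334 and 5937 normalised reads in H3.3 K36M and K36I and in H3.1 K36M, against 3910 in H3.3 K36A, 3440 in H3.3 K36L, 3401 in H3.3 K36R, 4768 in H3.1 K36R and 3232 in H3.3 WT. The classes did not overlap, and the 2 H3.1 lines lay closest to each other across the gap. Means were 7287 ± 1227 (SD, n = 3) and 3750 ± 622 (SD, n = 5) normalised reads, a ratio of 1.94. The difference was 0.94 ± 0.15 (SE; limma, adjusted p = 0.00509), and the call held with each library left out (0.83 to 1.07). Processed pseudogenes of Rbpj are known in mouse, and how reads shared with them were counted is not stated, which leaves its exact level uncertain.

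Hey1, a repressor related to HES1 and switched on by Notch (chr3:8663359-8667256, minus strand), had the lowest ratio among the genes tested in the pathway's core set. It had 30.5, 25.5 and 44.7 normalised reads in H3.3 K36M and K36I and in H3.1 K36M, against 261 in H3.3 K36A, 210.5 in H3.3 K36L, 1043 in H3.3 K36R, 348 in H3.1 K36R and 387 in H3.3 WT. No value of one class reached the other, and H3.3 K36R stood above the other lines. Means were 33.6 ± 9.94 (SD, n = 3) and 449.6 ± 339 (SD, n = 5) normalised reads, a ratio of 0.0747. The difference on the deposited scale was -1.99 ± 0.37 (SE; limma, adjusted p = 0.00958), and it was -3.55 in log2 reads when the recovered reads were fitted with limma voom. The call held with each library left out.

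Hes1, the most widely used Notch target (chr16:30064384-30067796, plus strand), did not pass. It had 1447, 837 and 1730 normalised reads in H3.3 K36M and K36I and in H3.1 K36M, against 2155 in H3.3 K36A, 1651 in H3.3 K36L, 2493.6 in H3.3 K36R, 2545 in H3.1 K36R and 2465 in H3.3 WT. H3.1 K36M lay above H3.3 K36L, so the classes overlapped, and the difference was -0.75 ± 0.22 (SE; limma, adjusted p = 0.0587). It passed without H3.1 K36M (adjusted p = 0.0276), without H3.3 K36L (0.0449), among H3.3 lines alone (0.0393), with histone as a covariate (0.0239) and with array weights (0.0212, all by limma). Heyl, another member of the Hey group (chr4:123233556-123249875, plus strand), was at or near the floor of 3 reads: 1, 6 and 0 reads in H3.3 K36M and K36I and in H3.1 K36M, and 0 to 4 in the other lines.

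Set side by side per kilobase, Hes1 was 97.8% to 98.2% of the sum of Hes1, Hey1, Hey2 and Heyl in the K36M and K36I lines, against 72.3% to 92.2% in the other 5. The order of the 10 genes by mean level differed between the classes. In the K36M and K36I lines it was Notch2 (755 normalised reads per kilobase), Hes1 (657), Rbpj (572), Jag1 (353), Lfng (318), Notch3 (221), Notch1 (63.7), Dll1 (17.2), Hey1 (10.3) and Heyl (0.395). In the other 5 lines it was Jag1 (2511), Hes1 (1110), Notch2 (1008), Lfng (879), Rbpj (294), Notch1 (265), Notch3 (181), Hey1 (138), Dll1 (3.62) and Heyl (0.300). Neighbours such as Hes1 and Notch2 in either class lie closer than the spread between lines. The order also depends on the exon lengths, which join all annotated exons of a gene (12750 bases for Rbpj, 2037 for Hes1).

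**Figure D2:**
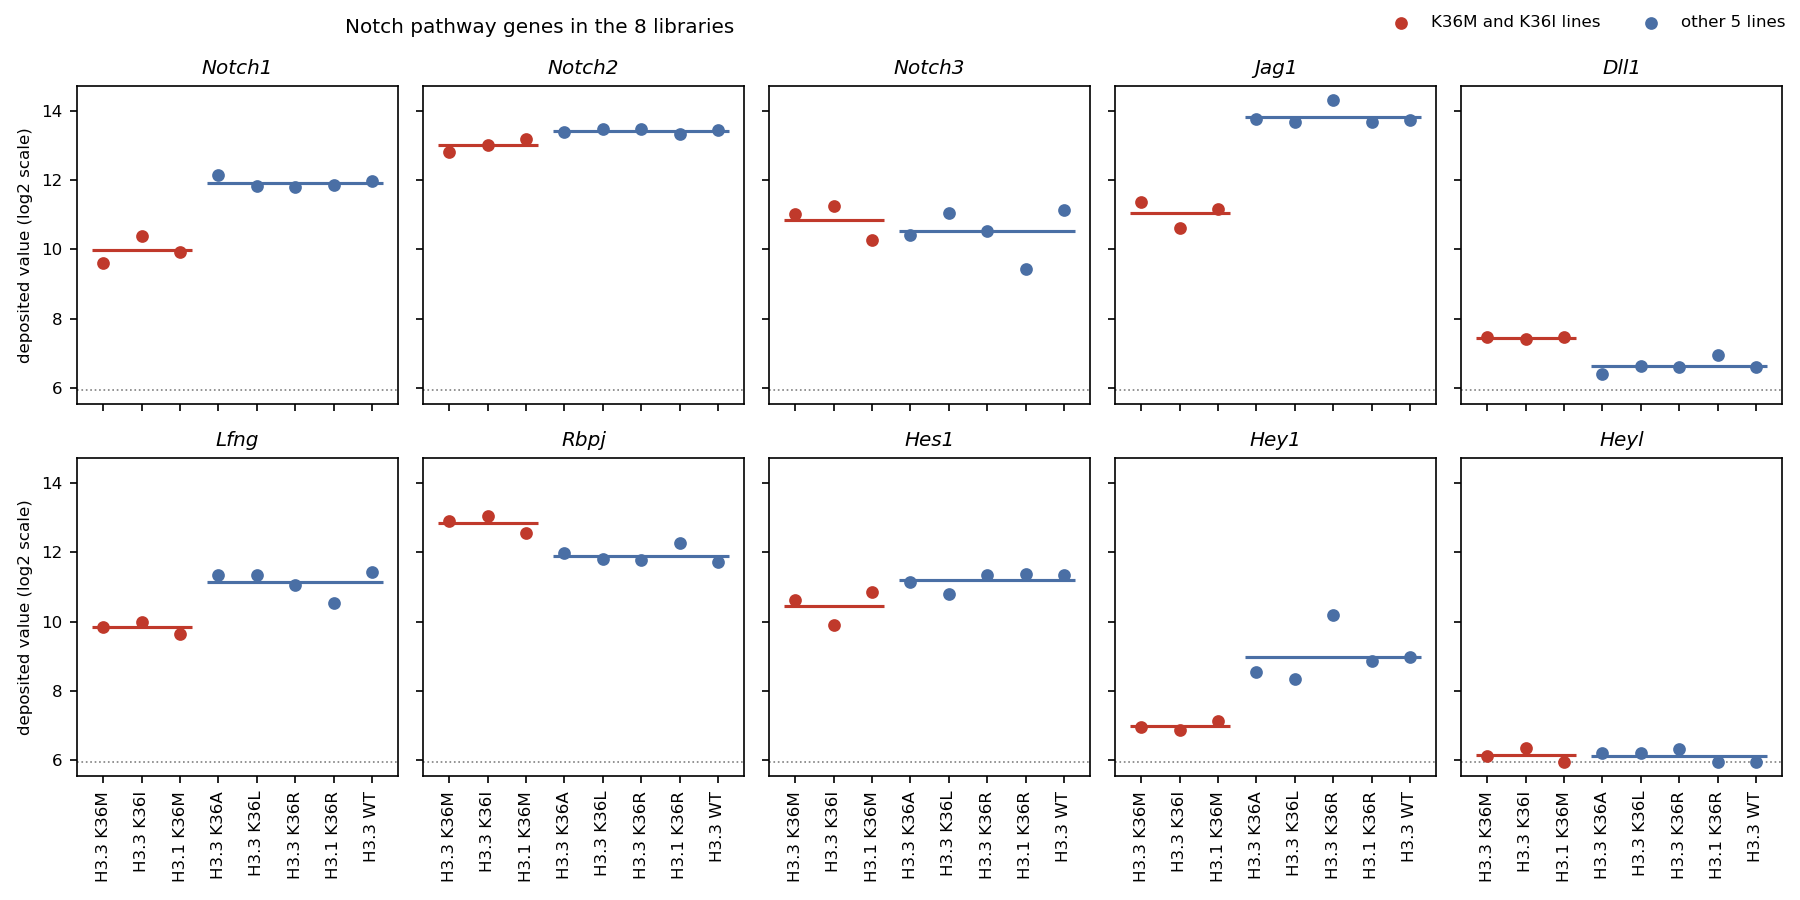
Each point is the deposited log2-scale value of a gene in 1 library, horizontal lines are class means and the dotted line is the value of 0 reads. The red points (K36M and K36I lines) lie under all blue points (other 5 lines) for Notch1, Notch2, Jag1, Lfng and Hey1, and above them for Dll1 and Rbpj.

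In all, 8 of the 10 genes passed the filter and were tested, and 5 of the 8 were lower (Jag1, Notch1, Notch2, Lfng and Hey1) and 1 higher (Rbpj). Over all 14215 genes tested, 6.82% were lower and 6.45% higher by the same rule (970 and 917 genes). The classes did not overlap for 6 of the 8, against 21.5% of all genes. The median difference of the 8 was -1.03, against -0.01 over all genes. Because the 10 genes were chosen with earlier results of these libraries known, these shares and medians describe the chosen genes and do not test the pathway.

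The rest of the pathway was followed in a list of 49 further genes, of which 42 passed the filter. Of these 3 were lower and 1 higher, a share close to the background, and their median difference was -0.08. Among 10 proteases and gamma-secretase subunits, Adam17, a sheddase, was lower at 7177, 6989 and 7941 normalised reads in H3.3 K36M and K36I and in H3.1 K36M, against 10024 to 10920 in the others (-0.50 ± 0.07 SE; limma, adjusted p = 0.00233). Aph1b, a subunit of gamma-secretase, was lower at 1232, 890 and 1511 against 1848 to 2788 (-0.90 ± 0.18 SE; limma, adjusted p = 0.0128). It has a close copy, Aph1c, so the split of reads between them is uncertain, and its call was lost without the pair with most 45S RNA (adjusted p = 0.0560) and with no filter (0.0507). Exons of Iah1 overlap Adam17 on the opposite strand. The other 8 proteases did not pass.

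Of 11 tested ubiquitin ligases and endocytic regulators, Numb, which restrains Notch receptors, was lower at 1604, 1604 and 1734 normalised reads in H3.3 K36M and K36I and in H3.1 K36M, against 1896 to 2343 (-0.34 ± 0.09 SE; limma, adjusted p = 0.0339). Dtx4, a Deltex ubiquitin ligase, was higher at 1137, 1439 and 1669 against 351 to 936 (0.96 ± 0.25 SE; limma, adjusted p = 0.0394). The Numb call held in 3 of the 8 fits that left out a library and the Dtx4 call in 2. Exons of Gm46367 overlap Numb on the opposite strand. None of 7 corepressors passed, and neither of 2 non-canonical ligands did. Of the other 4 members of the RBPJ transcription complex none passed. That includes Maml2, a Mastermind coactivator (656, 644 and 2219 normalised reads in H3.3 K36M and K36I and in H3.1 K36M, against 1521 to 2752; -0.95 ± 0.36 SE; limma, adjusted p = 0.127). The H3.1 K36M line was apart from the other 2 for Maml2, and without it the difference was -1.48 (adjusted p = 0.00269).

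Among targets outside the 10 genes, Hey2, a close relative of Hey1, had the largest difference that did not pass. It had 15.3, 1.70 and 10.5 normalised reads in H3.3 K36M and K36I and in H3.1 K36M, against 63.2 in H3.3 K36A, 17.5 in H3.3 K36L, 683 in H3.3 K36R, 312 in H3.1 K36R and 323 in H3.3 WT. The classes did not overlap but the other lines spread widely (-1.78 ± 0.60 SE; limma, adjusted p = 0.0898). Hey2 met the filter only through the other 5 lines: its mean in the K36M and K36I lines was 6.47 on the log2 scale, less than 1 above the lowest value of 5.95. The estimate also moved to -4.45 by limma voom on the recovered reads and to -2.59 without H3.3 K36A and H3.3 K36L, so its values are a description only. H3.3 K36R had the highest level of the 8 for Hey2, as it had for Hey1 and Jag1.

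**Figure D3:**
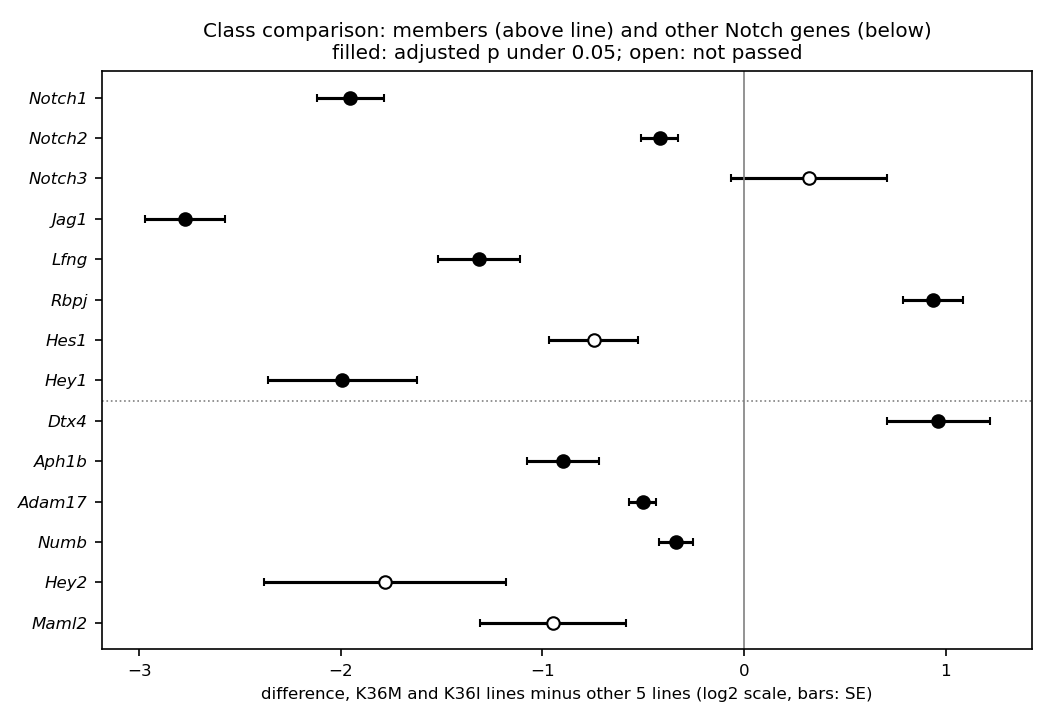
Points give the difference between the K36M and K36I lines and the other 5 lines on the log2 scale, with bars of 1 SE, for the 8 tested core genes (above the dotted line) and the 6 further pathway genes named by rule (below it). Filled points passed at an adjusted p under 0.05: Jag1 at -2.77 is farthest left, and Rbpj at 0.94 and Dtx4 at 0.96 are right of 0.

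The genes whose level ran most alike over the 8 libraries were sought among about 1570 genes past the filter with an SD of at least 0.5. Predicted genes, clones and small RNA genes had been left out. For Notch1 they were Tspan14 (Pearson r = 0.992), Sox9 (0.991) and Cask (0.989). For Jag1 they were Nuak1 (0.992), Cyp2j6 (0.989) and Shroom4 (0.987), and for Lfng they were Sox8 (0.996), Nebl (0.987) and Lgr4 (0.984). Notch2 ran with Pcolce2 (0.990), Akap13 (0.984) and Pdzrn3 (0.979). Hey1 ran with Me3 (0.984), Fam198b (0.977) and Scel (0.973). Rbpj ran with Zfp658 (0.994), Plac8 (0.964) and Jade2 (0.962). Tspan14 encodes a tetraspanin of the group that carries ADAM10 to the cell surface, and Sox9 and Sox8 encode related factors of the cartilage and neural crest lineages. These r values are descriptions over 8 libraries that share the same split by class.

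K36M and K36R are the only substitutions present on both histones, which allows a narrower comparison of the 2 K36M lines with the 2 K36R lines. Jag1 and Notch1 were lower in K36M, and no other of the 8 genes passed, where 1.56% of all genes did (222 of 14215). Jag1 differed by -2.71 ± 0.24 (SE; limma, adjusted p = 0.0270) and Notch1 by -2.07 ± 0.17 (SE; limma, adjusted p = 0.0246). Hey1 differed by -2.48 ± 0.46 (SE; limma, adjusted p = 0.0903), Lfng by -1.05 ± 0.23 (0.135), Hes1 by -0.63 ± 0.16 (0.166), Rbpj by 0.72 ± 0.22 (0.262), Notch2 by -0.40 ± 0.18 (0.440) and Notch3 by 0.65 ± 0.45 (0.657). Of the 42 further genes Hey2 alone was called (limma, adjusted p = 0.0461), but it met the filter only through lines where it was high, and its call was lost with any of the 4 libraries left out (adjusted p = 0.0508 to 0.137). The lines pair by histone, and with histone as a covariate 4 of the 8 genes passed among 639 in all: Lfng (adjusted p = 0.0446) and Hey1 (0.0493, both by limma) joined Jag1 and Notch1. With 2 lines a side these calls are fragile: without H3.3 K36R or without H3.1 K36R no gene of the table passed, and with no filter the adjusted p was 0.210 for Jag1 and 0.117 for Notch1 (limma).

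H3.1 is deposited at replication and H3.3 throughout the cell cycle. The 2 H3.1 lines were compared with the 6 H3.3 lines with the class of substitution as a covariate. Notch3 and Lfng were lower in H3.1 and the other 6 genes did not pass, against 11.0% of all genes called (1567 of 14215). Notch3 had 1104 and 576 normalised reads in H3.1 K36M and H3.1 K36R, against 1239 to 2305 in the H3.3 lines, without overlap (-1.13 ± 0.22 SE; limma, adjusted p = 0.0212). Its call was lost without H3.3 K36I (adjusted p = 0.0563), without H3.1 K36M (0.0868) and without H3.1 K36R (0.138). Lfng was lower in the H3.1 line of each class (-0.54 ± 0.14 SE; limma, adjusted p = 0.0457), a call that 1 of the 8 fits with a library left out kept, and without H3.1 K36R the difference was -0.27. Of the 42 further genes 4 were lower (Jag2, Dlk2, Dtx2 and Poglut1), and Maml2 was higher. Jag2 had 24.97 and 28.4 normalised reads (19 and 26 reads) in H3.1 K36M and H3.1 K36R, against 90.2 to 439 in the H3.3 lines, and since it met the filter only through the H3.3 lines these values are a description. The H3.1 libraries were also the shallowest, and the part of depth in these differences was not tested.

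Whether the class difference itself depended on the histone was asked with an interaction term. No gene of the table passed (0.00%, limma), with 1582 at an unadjusted p under 0.05 and 838 called when no filter was used, none of them among the 10 genes. Of the 8 genes Rbpj had the largest term for its error, -0.85 ± 0.17 (SE; class difference in H3.1 minus that in H3.3), which did not pass (limma, unadjusted p = 0.00178, adjusted p = 0.241). For Jag1 the term was 0.38 ± 0.48 (adjusted p = 0.812) and for Notch1 0.02 ± 0.41 (adjusted p = 0.990, both by limma). A miss here does not show that the histones act alike, since H3.1 had 1 line per class.

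Each mutant line can be set against H3.3 WT with 1 library a side and no test. In H3.3 K36M 5 of the 8 tested genes lay at least 1 apart from H3.3 WT (Jag1, Notch1, Hey1 and Lfng lower, Rbpj higher), where 8.69% of all genes did. In H3.3 K36I it was 6 of 8, with Hes1 also lower at -1.43, against 7.63%. In H3.1 K36M it was 4 of 8, all lower, against 10.3%, and Rbpj stood at 0.85. The lines with other residues were closer to H3.3 WT: 0 of 8 in H3.3 K36A (2.08% of all genes) and 0 of 8 in H3.3 K36L (1.03%). H3.3 K36R had Hey1 alone, higher by 1.21 (1.76%), and H3.1 K36R had Notch3 alone, at -1.70 (3.33%). These 7 comparisons share the same WT library, so its own values enter each of them. On log2 of normalised reads plus 1 the same genes of the 8 lay at least 1 apart in each line, but more of all genes did. In H3.3 K36M these were 944 higher and 908 lower, against 608 and 627 on the deposited scale. In H3.3 K36L they were 316 and 199, against 74 and 72. Fewer cells expressing a gene and less RNA per cell cannot be told apart in such bulk samples.

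**Figure D4:**
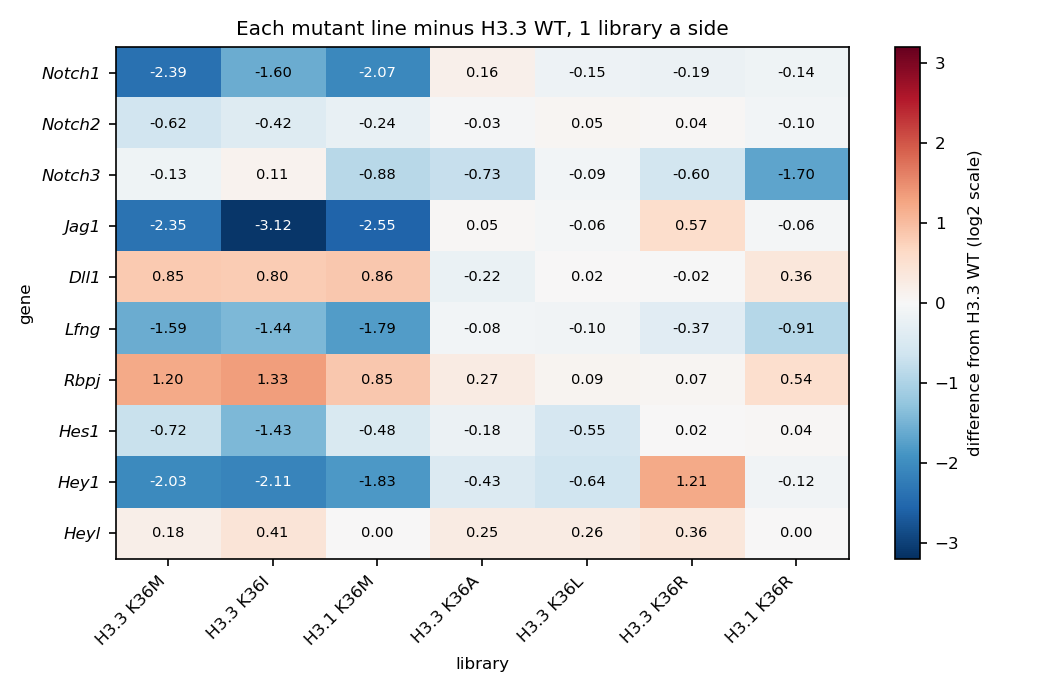
Each cell gives the log2-scale value of a gene in 1 mutant line minus that in H3.3 WT, from blue (lower) to red (higher). The first 3 columns, the K36M and K36I lines, run from -1.60 to -2.39 for Notch1 and from -2.35 to -3.12 for Jag1, while K36A, K36L and both K36R columns stay within 0.57 of WT for these genes.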

How the data were processed

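Per the labels' protocols, RNA was extracted with Trizol and made into libraries by an Illumina TruSeq protocol. Tools in the submitters' processing notes are STAR 2.3.0e, Trimmomatic 0.32, DESeq2 and featureCounts 1.4.4, with mm10 as the build; the sources used here give neither the gene annotation nor the use of strand. The values the authors deposited are variance-stabilised and on a log2 scale, with 1 column per library. Inverting the transformation returned whole reads for 100% of values (tolerance 0.001). The lowest value, 5.95, stands for 0 reads, and genes whose mean exceeded it by 1 or more (31.0 normalised reads) were tested: 14215 of 31276. Tests were two-sided, by limma (version 3.58.1, R version 4.3.3) with its intensity trend and Benjamini-Hochberg adjustment at 0.05 over all genes tested. The steps were also run on simulated data with noise independent between genes and libraries. That run does not speak to variation shared between lines. Exon lengths, positions and overlaps come from GENCODE M21. The 10 genes and the list of 49 were chosen with earlier results of these data known. The text names all 10, the further genes called in the class comparison with the 2 largest misses, and 3 genes of like pattern per called gene; Jag2, Dlk2, Dtx2, Poglut1, Rfng, Mfng and Notch4 were named after their values were seen. Some genes of the lists are not reported here.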

Additional observations from a re-analysis of the deposited data

Results flagged for a closer look

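Jag1 in H3.3 K36R stood apart from the other 4 lines without K36M or K36I. Its deposited log2-scale value was 14.30, the nearest other line was at 13.77 and the lowest at 13.67, so that the gap was 0.828 of the whole range, above Dixon's critical value at 95% for 5 samples. Of the 10 genes examined it was the only one with such a gap, and chance alone gives about 1 in 20 groups one. Without H3.3 K36R the class difference in Jag1 still passed.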

How the results depend on the processing

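The labels number no replicates; K36M and K36R pair by histone, and the fit with histone as a covariate stands for that pairing. In the class comparison 1887 genes were called; leaving out 1 library gave 1021 to 2084, histone as a covariate 2959, array weights 4074, and leaving out H3.3 K36A and H3.3 K36L, the pair with most 45S RNA, 1171. Setting library medians equal moved the split to 1156 higher and 805 lower, against 917 and 970. Limma voom on the recovered reads called 1845. For K36M against K36R, 222 genes became 123 with no filter, 639 with histone as a covariate and 0 to 471 with a library left out; the 2 calls among the 10 genes became 0 with no filter, 4 with histone as a covariate (Jag1, Notch1, Lfng and Hey1), and 0 to 2 with a library left out. For H3.1 against H3.3, 1567 genes became 553 with no filter, 12 in a fit of the 4 K36M and K36R libraries, and 183 to 1934 with a library left out; the 2 calls among the 10 genes became 0 with no filter, 1 with no intensity trend, 0 in the fit of 4, and 0 to 2 with a library left out. The interaction gave 838 calls with no filter. Of 340 single-gene values under an alternative, 64 changed their call and 0 changed direction; the cause was not tested.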
